A study of Mus musculus with 4 samples.

Results

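The experiment described here is the 96 h pair of a microRNA (miRNA) array study in mouse activated T cells: 2 of the study's 4 arrays, both hybridised with RNA of cells transduced with Foxp3 and RNA of cells transduced with a control vector. It was chosen by its labelled time. On 1 array the Foxp3 RNA carried Cy5 and the control RNA Cy3, and on the other the dyes were exchanged. The other 2 arrays are a pair of the same layout at 72 h. All 171 miRNA probes of the 178 in the value table were used, and the remaining 7, for small nuclear RNAs and tRNAs, served as controls. Both groups were activated T cells given a vector, so the comparison is Foxp3 against a control vector in stimulated cells, with no resting or natural regulatory T cells. Strain, age, vector, transduced share and any sorting are not given in the sources used here. The arrays measured bulk RNA, in which fewer cells of a type and less RNA per cell cannot be told apart.

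Foxp3 is the master transcription factor of regulatory T cells, the lymphocytes that restrain immune responses, and putting it into conventional T cells gives them part of that behaviour. A miRNA is a short RNA that guides the Argonaute protein to messenger RNAs and lowers their output. Its targets are chosen mainly by the seed, the bases 2 to 8 from its 5′ end, so miRNAs of 1 seed form a family. In lymphocytes the miR-17-92 cluster and miR-155 promote proliferation and immune responses, let-7, miR-15 and miR-16 restrain growth, and miR-142, miR-150, miR-181 and miR-223 mark blood lineages. The miR-200 family belongs to epithelia, miR-192 to gut, liver and kidney, miR-126 to endothelium and the miR-290 cluster to embryonic stem cells.

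Probe IDs end in a miRNA number (2org-222 for miR-222, 1org-7a for let-7a), and by these IDs 129 of the 171 probes were placed in 56 families from prepared lists. In the platform annotation 61 probes had a single gene symbol, 1 had several and 109 had none. Of the 50 family probes with a single symbol, 2 had a symbol with another letter than the ID, 1org-34a and 1org-34c, for which the annotation names the other of these relatives. A mature sequence from RefSeq (mouse build GRCm38.p6) was matched to 107 probes. The arm taken for each is the customary one for its old name, and probe sequences were not used here. The sequences below are those of the families that the results turn on, written 5′ to 3′ with the seed in capitals.

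miR-221-3p: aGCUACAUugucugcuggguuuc
miR-222-3p: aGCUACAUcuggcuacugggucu
miR-17-5p: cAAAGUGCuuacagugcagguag
miR-20a-5p: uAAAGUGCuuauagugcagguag
miR-106a-5p: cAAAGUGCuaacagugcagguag
let-7a-5p: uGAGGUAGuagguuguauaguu
let-7e-5p: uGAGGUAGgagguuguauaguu
miR-98-5p: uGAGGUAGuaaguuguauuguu
miR-200b-3p: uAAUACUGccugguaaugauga
miR-200c-3p: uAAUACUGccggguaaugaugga
miR-200a-3p: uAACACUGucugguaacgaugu
miR-141-3p: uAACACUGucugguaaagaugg

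miR-221 and miR-222 share the seed GCUACAU and differ at 12 of 23 bases. Their genes lie on the minus strand of chromosome X, at chrX:19146307-19146329 and chrX:19146901-19146923. miR-17, miR-20a and miR-106a share the seed AAAGUGC. miR-17 differs from miR-106a at 1 of 23 bases, and miR-20a differs from miR-106a at 3 of 23. let-7a differs from let-7e at 1 of 22 bases and from miR-98 at 2 of 22. miR-200b and miR-200c differ at 2 of 22 compared bases, as do miR-200a and miR-141, and these pairs have the neighbouring seeds AAUACUG and AACACUG.

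The direction of the deposited ratios was not settled. In the turned reading, taken as the likely one because Cy5 was channel 2 on both arrays, a value is the log2 ratio of Cy5 over Cy3, and the sign of the array with Foxp3 in Cy3 is turned. In the other reading, the deposited values are already Foxp3 over control on both arrays. For a probe with deposited values of 1 and -1, the turned mean is 1 and the other mean is 0. The SD between the 2 turned arrays is a fixed multiple of the mean in the other reading, so a probe that is large in 1 reading is noisy in the other. Both arrays were taken to carry the same RNAs, which the labels do not state. On that basis an SD here is technical, 96 h counts as 1 replicate, and no p-value is given within 96 h.

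As deposited, the array with Foxp3 in Cy5 had a median of 1.27 (from -1.70 to 5.10) and 155 of 171 miRNA probes above 0. The array with Foxp3 in Cy3 had a median of 0.02 (from -1.68 to 3.53) and 89 probes above 0. The array with Foxp3 in Cy5 therefore stood high as a whole, against medians of -0.59 and -0.83 at 72 h. After turning, 96 of the 171 probes (56.1%) had 1 sign on both arrays, 81 above 0 and 15 below. As deposited, 75 (43.9%) had 1 sign, 74 of them above 0 and only 2org-321, named for this count of 1, below. Over the 171 probes, which share both RNAs and are not independent, the 2 deposited columns correlated at r = -0.12 (Spearman rho = -0.33), and at r = -0.41 over the 167 probes without miR-200a, miR-200b, miR-200c and miR-99b.

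**Figure D1:**
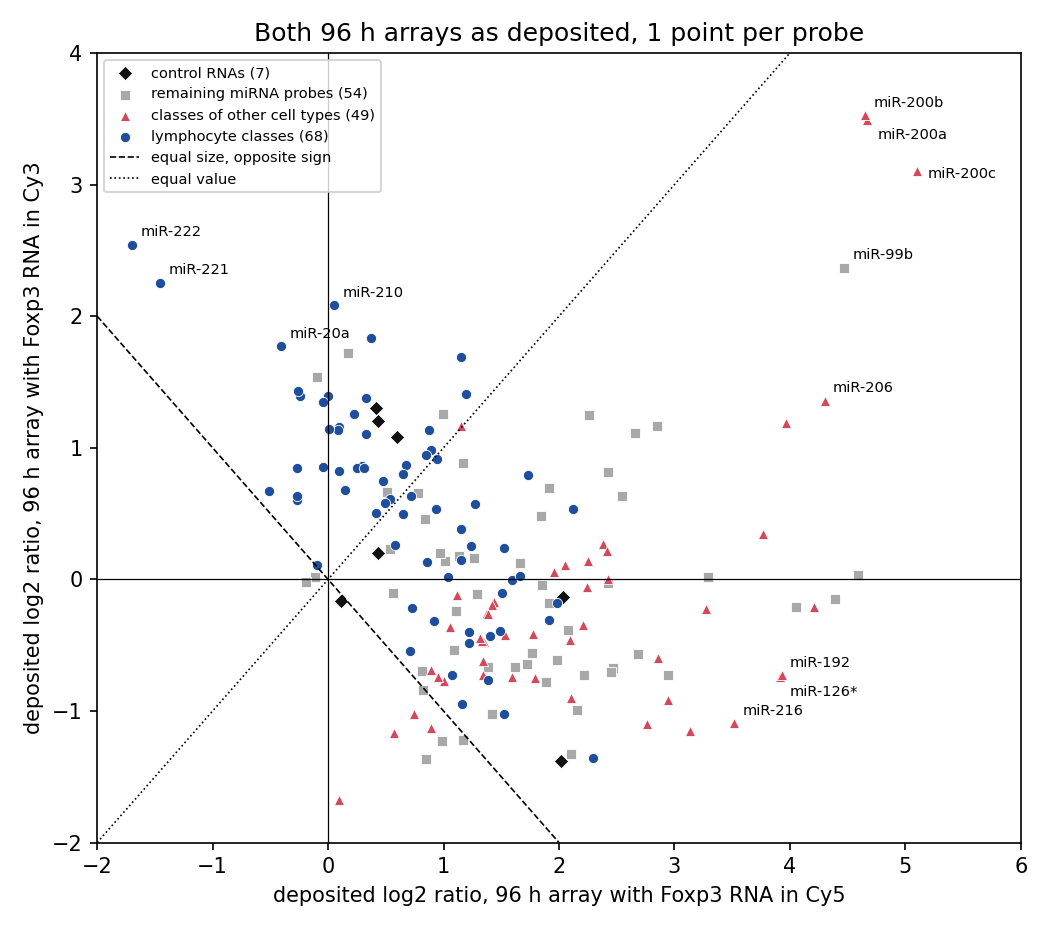
Deposited log2 ratio of each of the 178 probes at 96 h, with Foxp3 RNA in Cy5 (horizontal) and in Cy3 (vertical), coloured by list; points on the dashed line have equal size and opposite sign, points on the dotted line have equal value. miR-221 and miR-222 lie near the dashed line at upper left, while miR-200a, miR-200b and miR-200c lie highest, near the dotted line.

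In the turned reading at 96 h, the lymphocyte classes lay around 0, while most other probes, those of other cell types among them, lay above it. The 68 probes of 4 lymphocyte classes (proliferation and lymphoid clusters, growth control, blood lineage and activation) had a median of -0.05, with 37 below 0. The name is a label for these lists, and the members are not all particular to lymphocytes. Growth control holds 31 of the 68, and blood lineage holds miR-223 of granulocytes and monocytes. The 49 probes of 9 classes of other cell types (epithelial, liver and gut, pancreas, muscle, neural, embryonic stem, stromal and endothelial, erythroid and imprinted) had a median of 1.01, with 1 below 0. All 171 probes had a median of 0.80. The 42 probes in no list had a median of 0.82, with 39 above 0. The 8 probes of the miR-10, miR-99 and miR-125 families, outside both groups, had 1.12. Lying above 0 was thus not particular to the classes of other cell types. Of the 44 probes below 0, 37 were in the lymphocyte classes. The gap was seen on each array alone: with Foxp3 in Cy5 the medians were 0.69 for lymphocyte probes and 1.96 for the others, and with Foxp3 in Cy3, after turning, -0.64 and 0.42.

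Called here past 1.5-fold is a mean beyond 0.585 in size on the log2 scale with 1 sign on both arrays, a rule without a test. Among all 171 probes, 79 (46.2%) were past it on the higher side and 9 (5.26%) on the lower side. The lymphocyte classes held 15 of the 79 and 8 of the 9, which is 22.1% and 11.8% of their 68 probes. The classes of other cell types held 36 of the 79 and none of the 9, 73.5% of their 49 probes. After each array was centred on its miRNA median, which lowered all means by 0.62, the split turned to 30 higher (17.5%) and 43 lower (25.1%), and 38 of the 43 were lymphocyte probes. Centring on the U6 and tRNA controls gave 108 and 4. The other reading gave 58 higher (33.9%) and 0 lower (0%), with 26 of the 58 lymphocyte probes and 13 probes of other cell types. No probe was past 1.5-fold in both readings, a result of how the readings are built.

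The 2 groups also differed in how the arrays related as deposited. Over the 68 lymphocyte probes the columns ran in opposite directions, at r = -0.70 (rho = -0.66), and at r = -0.63 over 66 probes without miR-221 and miR-222. Over the 49 probes of other cell types they ran in the same direction, at r = 0.61 (rho = 0.43), and at 0.35 over 46 probes without miR-200a, miR-200b and miR-200c. At 72 h the corresponding r were 0.12 and 0.92. Base composition did not follow the values, with r = 0.02 between GC content and the turned mean and 0.04 with the other mean over 107 probes with a sequence.

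**Figure D2:**
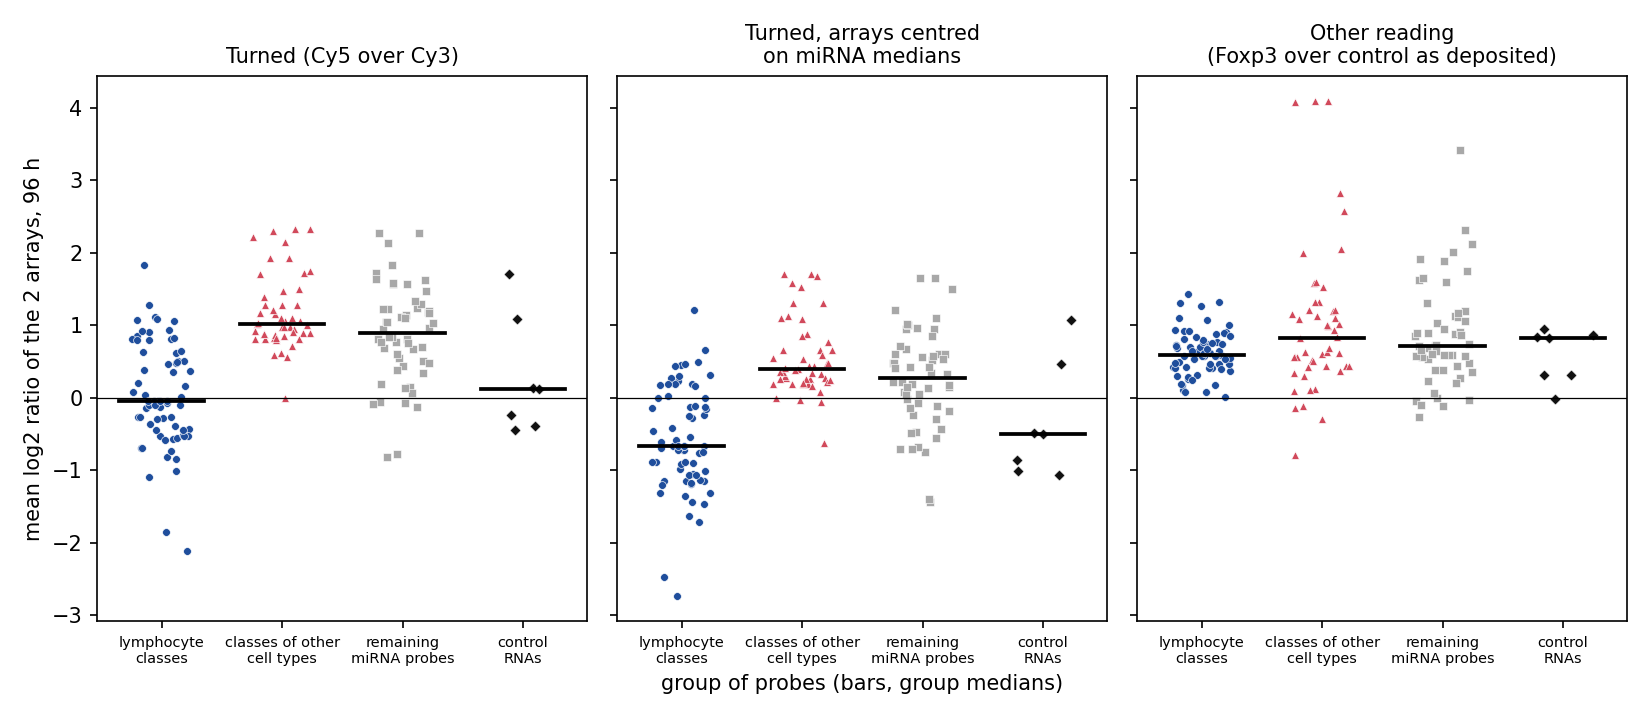
Mean log2 ratio of the 2 arrays at 96 h for each probe (points) by group, with group medians as bars, in the turned reading, the turned reading after centring each array, and the other reading. The lymphocyte median lies at -0.05, -0.67 and 0.59 in the 3 panels, and that of the classes of other cell types at 1.01, 0.39 and 0.82.

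The lowest values belonged to miR-221 and miR-222, which are made from 1 transcript and restrain the cell cycle inhibitor p27. The miR-222 probe (2org-222) read -1.70 with Foxp3 in Cy5 and 2.54 with Foxp3 in Cy3, so the control RNA was brighter in both dyes if the values are Cy5 over Cy3. Its turned mean was -2.12 ± 0.60 (SD, n = 2 arrays), or 4.34-fold lower with Foxp3. The miR-221 probe (2org-221) read -1.45 and 2.26, a turned mean of -1.85 ± 0.57 (SD, n = 2 arrays) or 3.61-fold lower. Read the other way these means are 0.42 and 0.40, on the opposite side of 0. Centring on the miRNA medians gave -2.74 and -2.48, and centring on U6 and tRNA -1.79 and -1.53. Centring moves all turned means by the same amount, so their rank as the lowest 2 miRNA probes could not change.

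The miR-17-92 cluster and its paralogues, which drive lymphocyte proliferation, were mostly below 0. The 10 probes of their listed miRNAs all had turned means below 0, from -1.09 to -0.04 with a median of -0.45, and 2 were past 1.5-fold. All 10 were past it on the lower side after centring on the miRNA medians, against 25.1% of all 171 probes and 55.9% of the lymphocyte classes. Centring on U6 and tRNA left 6 of 10 below 0. miR-20a (1org-20) read -0.41 and 1.77, a turned mean of -1.09 ± 0.97 (SD, n = 2 arrays). miR-19a (2org-19a) read -0.04 and 1.35, a mean of -0.70 ± 0.92. miR-18 (1org-18) read 0.37 and 1.84, so its mean of -0.73 came from arrays of unlike sign. On the array with Foxp3 in Cy5 4 of the 10 were below 0, and on the one with Foxp3 in Cy3 all 10 were below 0 after turning.

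miR-17-5p (2org-17-5p) had a turned mean of -0.45 and miR-106a (1org-106a), 1 base apart, -0.10. The 5 listed probes of the cluster's own locus, chr14:115043684-115044496, ran from -1.09 to -0.04. A further probe, 2org-17-3p, is named for the opposite arm of miR-17 and was in no list. It read 2.22 and -0.73, a turned mean of 1.47 ± 1.05 (SD, n = 2 arrays), past 1.5-fold on the higher side before and after both centrings. The 3 of the miR-106b-25 locus, chr5:138165332-138165807, ran from -0.45 to -0.08. miR-32 (2org-32), a relative of miR-92 by seed that lies elsewhere, was the exception in the class at 0.92 ± 0.69 (SD, n = 2 arrays).

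The let-7 family, which represses Ras and Myc and restrains growth, had means on both sides of 0. Of its 9 probes 6 had a mean below 0 in the turned reading, with a median of -0.27. The 2 arrays differed for most members. With Foxp3 in Cy5, 8 of the 9 were above 0, and with Foxp3 in Cy3, 8 were below 0 after turning. Only 2 of the 9 had 1 sign after turning and 7 as deposited, against 56.1% and 43.9% of all 171 probes. let-7a (1org-7a) read 0.00 and 1.14, and let-7d (1org-7d) read -0.27 and 0.84, with turned means of -0.57 and -0.56 just outside 1.5-fold. let-7e (1org-7e) read 1.04 and 0.02, a turned mean of 0.51 with 1 base of difference from let-7a, a gap of 1.08. miR-98 (1org-98) read 1.53 and -1.03, a turned mean of 1.27 ± 0.35 (SD, n = 2 arrays). It was the only member past 1.5-fold (11.1% on the higher side, against 46.2% of all 171 probes). After centring on the miRNA medians, 7 of the 9 (77.8%) were past 1.5-fold on the lower side and miR-98 alone remained on the higher side. The lower share was 25.1% over all 171 probes and 55.9% over the lymphocyte classes.

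Among the other growth control families, miR-15a (1org-15a), which represses Bcl2, read -0.26 and 1.44, a turned mean of -0.85 ± 0.83 (SD, n = 2 arrays). Its relatives followed at -0.44 for miR-15b, -0.10 for miR-16 and 0.37 for miR-195. miR-16, at -0.10 and 0.11 as deposited, had the pair's smallest spread in the family before centring, 0.01. Centred on the miRNA medians, its turned values were -1.365 and -0.09. The miR-29 family, repressors of collagens and of interferon-γ, lay at -0.52 for miR-29b, -0.27 for miR-29a and 0.38 for miR-29c. The miR-30 probes ran from -0.39 (miR-30c) to 0.80 (miR-30a), and miR-30b, at 0.62, was the last inside the threshold on the higher side. miR-26b (1org-26b) read 1.16 and -0.95, a mean of 1.05 ± 0.15 (SD, n = 2 arrays), while miR-26a, 2 bases apart, was at 0.07. After that centring the turned values of miR-26b were -0.11 and 0.97, of unlike sign. In the class as a whole 9 of 31 (29.0%, against 46.2% of all 171 probes) were past 1.5-fold on the higher side and 1 (3.23%, against 5.26%) on the lower side.

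Of the miRNAs that follow T cell activation, miR-155 (1org-155), which promotes T cell responses and is a known target of Foxp3, read -0.25 and 1.40. Its turned mean was -0.82 ± 0.81 (SD, n = 2 arrays), 0.58 in the other reading. miR-210 (2org-210), induced by hypoxia, read 0.05 and 2.08, both above 0, with a turned mean of -1.01. miR-21 was at -0.36, miR-132 at -0.53, miR-146 at 0.20 and miR-22 at 0.16. miR-31 (1org-31), reported to repress Foxp3, read 1.22 and -0.40, a turned mean of 0.81 ± 0.58 (SD, n = 2 arrays). The linked miR-182, miR-96 and miR-183 had turned means of 0.90, 0.82 and 0.80. As deposited, miR-182 read 1.08 and -0.72, and miR-183 read 1.51 and -0.10. miR-96 read 1.66 and 0.025, of unlike sign after turning. In this class 3 of 16 (18.8%, against 46.2% of all 171 probes) were past 1.5-fold on the higher side and 1 (6.25%, against 5.26%) on the lower side, and all of the higher ones left the threshold after centring on the miRNA medians.

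The blood lineage miRNAs pointed both ways. miR-142-3p (1org-142-as), present in all blood cells, read 0.00 and 1.39, a turned mean of -0.70 ± 0.98 (SD, n = 2 arrays). A second probe for this locus, 2org-142*, gave -0.59 ± 0.11, the last inside the threshold on the lower side, and the probe for the opposite arm, 1org-142-s, gave 0.47. miR-150 of mature lymphocytes was at -0.28 and the 3 miR-181 probes, thymocyte miRNAs, ran from 0.35 to 0.62. miR-223 (2org-223), a miRNA of granulocytes and monocytes, read 2.30 and -1.36, a turned mean of 1.83 ± 0.67 (SD, n = 2 arrays), or 3.55-fold. It was the highest of the 68 probes listed in the lymphocyte classes. The label of T cells was set against miR-142-3p, miR-150, miR-181a and miR-155, whose turned means were -0.70, -0.28, 0.35 and -0.82. A ratio holds no level, so these do not show how abundant T cell miRNAs were.

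miR-34c (1org-34c) was the only probe outside the lymphocyte classes among the 10 lowest of 1 sign. It read -0.10 and 1.54, a turned mean of -0.82 ± 1.02 (SD, n = 2 arrays). 1org-34b, for a miRNA of the same p53-induced family, read 1.17 and -1.22, a mean of 1.19 ± 0.04. This small SD holds only before centring: centred on the miRNA medians, its turned values were -0.10 and 1.24. The fourth probe of the family, 2org-34, read 0.18 and 1.72, a turned mean of -0.77, close to that of 1org-34c. The annotation exchanges 34a and 34c, so the value of -0.82 belongs to miR-34a, and 0.68 to miR-34c, if the annotation holds.

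**Figure D3:**
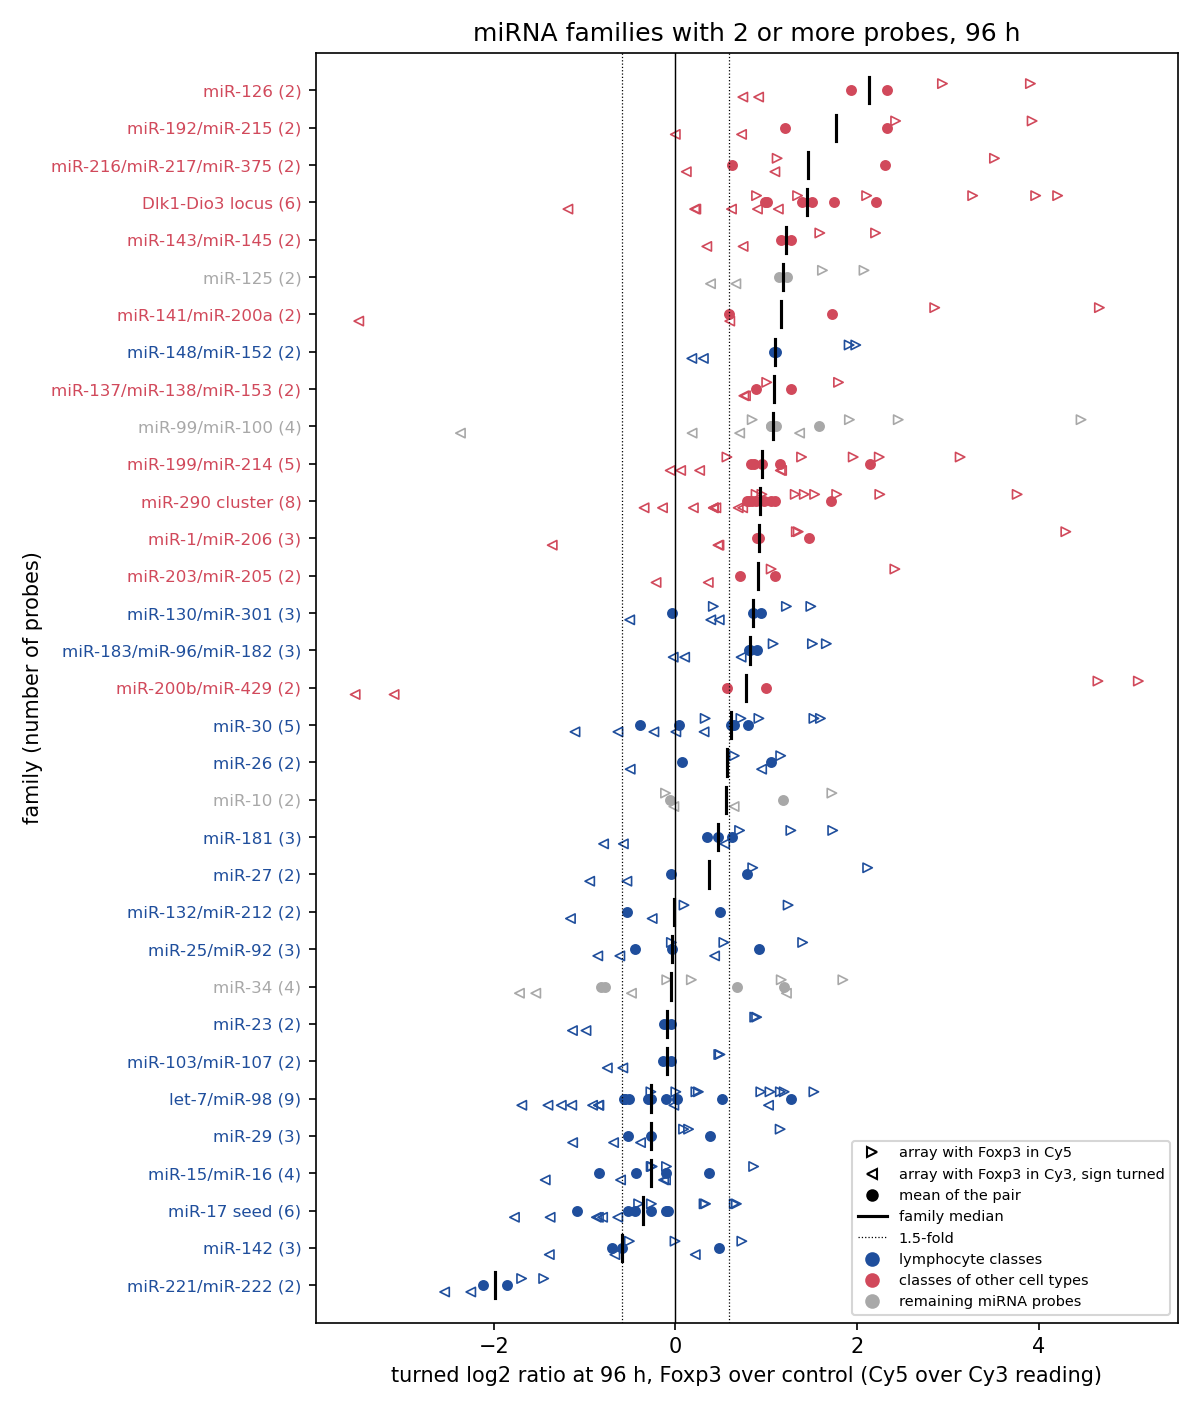
Turned log2 ratios at 96 h of the 33 families with at least 2 probes, ordered by median (bars): filled points are means of the pair, open triangles the single arrays. The family of miR-221 and miR-222 is lowest at -1.99 and apart from the next family, miR-142 at -0.59; dotted lines mark 1.5-fold.

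The highest turned means belonged mostly to the classes of other cell types. Of the 10 highest of 1 sign, 7 were in those classes and 3, miR-185, miR-190 and miR-196, in no list. miR-192 (1org-192) read 3.93 and -0.73, a mean of 2.33 ± 2.26 (SD, n = 2 arrays), or 5.02-fold. The passenger strand of miR-126 (1org-126*) read 3.91 and -0.74, a mean of 2.33 ± 2.24, and miR-126 itself read 2.94 and -0.92, a mean of 1.93 ± 1.43. miR-216 (2org-216), a pancreatic miRNA, read 3.51 and -1.10, a mean of 2.30 ± 1.71. In all 4 the array with Foxp3 in Cy5 carried most of the difference.

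The stromal miR-199 antisense-arm probe (1org-199-as) read 3.14 and -1.16, a mean of 2.15 ± 1.40 (SD, n = 2 arrays). miR-144 (1org-144) of red cells read 2.76 and -1.10, a mean of 1.93. miR-299 (1org-299) of the imprinted Dlk1-Dio3 locus had 2.21, and the other 5 probes of that locus ran from 0.98 to 1.75. Of the 8 probes of the miR-290 cluster, the 7 matched to a sequence at chr7:3218639-3220837 lay between 0.79 and 1.10. The eighth, 1org-292-as, was higher, at 1.71 ± 2.91 (SD, n = 2 arrays), and above 0 on both arrays as deposited. Over the 79 probes past 1.5-fold on the higher side, 71 had the larger turned value where Foxp3 RNA carried Cy5, and all 9 on the lower side had the larger size where it carried Cy3. Both conditions amount to a mean above 0 in the other reading, which 161 of all 171 probes had. These counts are therefore no trait of the probes past 1.5-fold.

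The miR-200 family, epithelial repressors of Zeb1 and Zeb2, gave the largest deposited values and stood out only when the sign was not turned. miR-200a (1org-200a) read 4.67 and 3.49, miR-200b (1org-200b) 4.65 and 3.53, and miR-200c (2org-200c) 5.10 and 3.10. Each was above 3 on both arrays, with Cy5 brighter whichever RNA it marked if the values are Cy5 over Cy3. Their turned means were 0.59, 0.56 and 1.00 with SDs of 5.77 to 5.80, and in the other reading their means were 4.08, 4.09 and 4.10. miR-141 (1org-141), which differs from miR-200a at 2 bases and lies beside miR-200c, read 2.86 and -0.60, a turned mean of 1.73 ± 1.60 (SD, n = 2 arrays). At 72 h the means of miR-200a, miR-200b and miR-200c in the other reading were 2.40, 2.07 and 1.76, again with 1 sign as deposited.

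miR-99b (1org-99b), at 4.47 and 2.37, and the muscle miRNA miR-206 (1org-206), at 4.30 and 1.36, followed in the other reading with means of 3.42 and 2.83. miR-136 (1org-136), at 3.97 and 1.19, had 2.58. Of the 10 highest of 1 sign in that reading, 6 were in the classes of other cell types and none in the lymphocyte classes. miR-122a (1org-122a) of liver was the lowest there, at -0.79, from 0.09 and -1.68 as deposited. With 2 arrays, a dye effect on single probes and the other reading of the sign cannot be told apart.

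By their means, families were mostly of 1 direction in the turned reading, where 127 of all 171 probes were above 0 and 44 below. Of 33 families with at least 2 probes, 18 had every probe above 0, 4 had every probe below 0 (miR-221 with miR-222, the miR-17 seed, miR-103 with miR-107, and miR-23) and 11 had probes on both sides. Of the 4, only miR-221 with miR-222 had 1 sign on both turned arrays for every probe. The miR-17 seed had it for 2 of 6 probes, and miR-103 with miR-107, and miR-23, for 0 of 2 each. Among the 18 it also varied, from 0 of 2 for miR-200b with miR-200c to 2 of 2 for miR-126. Once arrays were centred on their miRNA medians these counts became 13, 8 and 12, with 99 of all 171 probes above 0. The families with every probe below 0 then gained those of miR-132, miR-142, miR-15 and miR-29. With centring on U6 and tRNA only miR-221 with miR-222 had every probe below 0, and 148 of all 171 probes were above 0. Under the other reading 28 had every probe above 0 and none below, with 161 of all 171 probes above 0. By exact seed among probes with a sequence, 22 seeds were held by at least 2 probes, 10 of them with all means above 0 and 3 with all below. Whether the family and seed counts differ from what the shares over all probes would give was not tested.

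Members 1 base apart did not always have like values. miR-10b and miR-10a lay at 1.18 and -0.06, miR-27b and miR-27a at 0.79 and -0.05, and miR-29c and miR-29a at 0.38 and -0.27. miR-103 and miR-107, also 1 base apart, lay at -0.14 and -0.04. The median SD between the 2 arrays was 0.92 over all miRNA probes, part of which is the offset between the array medians, and no test was made of gaps between members.

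The control RNAs were also divided in the turned reading. U6 (4.8S_U6-snRNA) read 0.12 and -0.16, a turned mean of 0.14 ± 0.03 (SD, n = 2 arrays), and the 4 tRNA probes ran from -0.44 to 0.12. The other 2 small nuclear RNA probes had turned means of 1.09 and 1.70 and lay among the higher miRNAs. The U6 and tRNA probes had a median of 0.43 with Foxp3 in Cy5 and, after turning, -1.08 with Foxp3 in Cy3. With each array centred on these, the miRNA median was 1.13.

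Set against the 72 h pair, the uncentred 96 h values lay higher. The median over miRNA probes was 0.80 at 96 h and 0.07 at 72 h, and for the classes of other cell types it was 1.01 and 0.10. For the lymphocyte classes it was -0.05 and -0.06. A limma fit of the 4 arrays, with a term for the dye and 1 residual degree of freedom, passed 0 of 171 probes (0%) at an adjusted p under 0.05, and 0 had an unadjusted p under 0.05. With centring on miRNA medians 0 passed and 10 had an unadjusted p under 0.05, with centring on U6 and tRNA 0 and 32, and in the other reading 2 and 42. In the uncentred turned fit the lowest adjusted p was 0.991. The standard error of a difference there was 1.56 for every probe, since the fit pooled the variance of all probes. The arrays of a time are taken to carry the same RNAs. On that basis p-values and intervals cover only the spread between hybridisations, not that between cultures. The probe with the lowest unadjusted p in the uncentred turned fit, miR-299, differed by 2.57 on the log2 scale with a 95% interval of -0.52 to 5.66. Separate cultures for the 2 times are not stated in the labels.

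Without a test and before centring, 12 probes lay apart from 72 h by 1.5-fold with no overlap of their arrays. Of these, 8 were higher and 4 lower at 96 h. miR-222 had turned values of -1.70 and -2.54 at 96 h against -0.81 and -0.98 at 72 h, below 0 on all 4 arrays. miR-221 had -1.45 and -2.26 against -0.49 and -0.72. miR-155 lay on opposite sides of 0, with -0.25 and -1.40 at 96 h against 1.21 and 0.71 at 72 h. miR-26b lay the other way round, with 1.16 and 0.95 against -0.95 and -0.14. miR-21 was at -0.36 against 0.33 in the means, and miR-223 at 1.83 against -0.21. The other 6 were higher at 96 h: miR-98, miR-34b, miR-182, miR-213, miR-214 and the miR-199 antisense-arm probe.

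**Figure D4:**
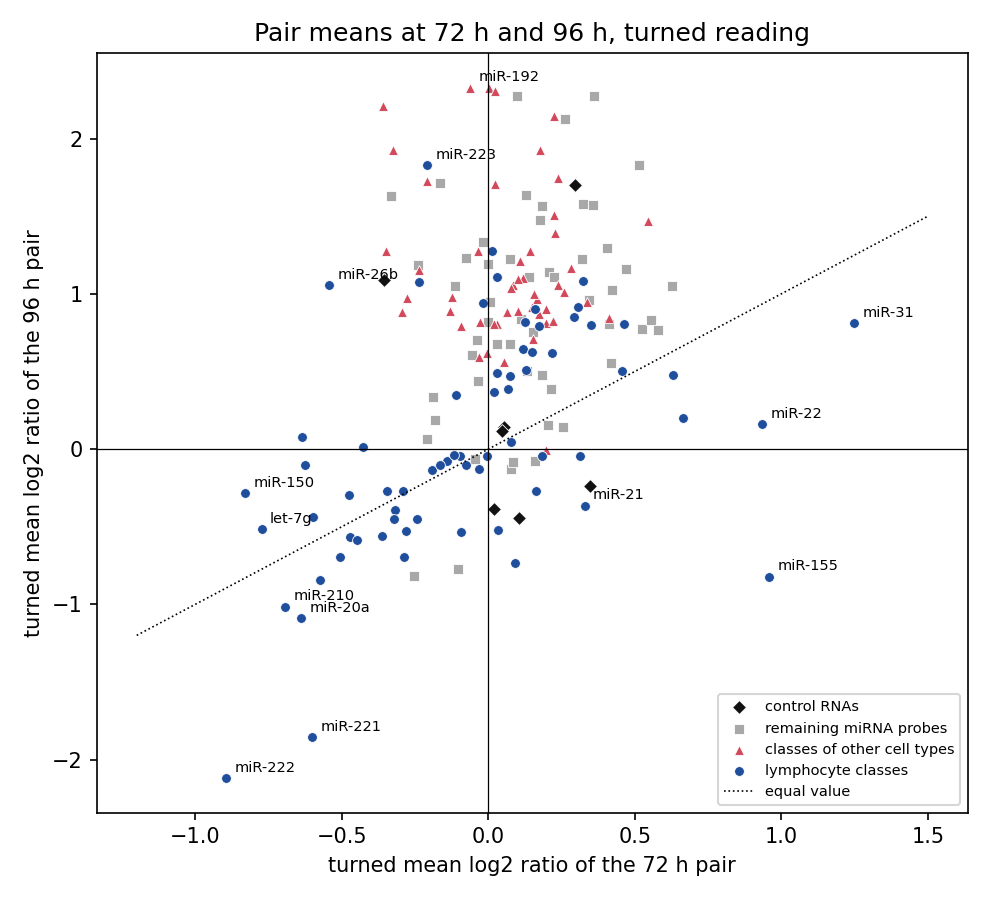
Turned mean log2 ratio of each probe at 72 h (horizontal) and 96 h (vertical), uncentred, with a dotted line of equal value. Probes of other cell types lie above the line as a group, with medians of 0.10 and 1.01; miR-221 and miR-222 are below 0 at both times, and miR-155 is above 0 at 72 h and below 0 at 96 h.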

How the data were processed

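The authors' deposited value table was used, with 1 value per probe and array, taken as a log2 ratio of the channels; natural logs are possible. Scanner, background correction, normalization, centring and direction are not given in the sources used here. Intensities were not used. The 2 arrays of a time were averaged after turning the sign of the one with Foxp3 in Cy3. Their number limits the precision. The comparison of times used limma 3.58.1 (R 4.3.3) with Benjamini-Hochberg adjustment. The fit was tried on simulated data with less noise than these arrays, which does not show its power here. Members, lists and readings were chosen with earlier results of these data known. Probes named were the 10 highest and 10 lowest means of 1 sign in each reading, all members of the lymphocyte classes, of other families the highest and lowest probe, and the controls as a group; other probes were named after their values were seen. Alternatives were centring on miRNA medians or on U6 and tRNA, scaling, the other reading, 2-fold, natural logs, no sign rule, controls included, no dye term and each array left out.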

Additional observations from a re-analysis of the deposited data

Results flagged for a closer look

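In the uncentred turned reading, the ratios at 96 h and at 72 h lay on opposite sides of 0 for 2 probes that the report names. This held on both arrays of each time. For miR-155 (1org-155) the turned mean at 96 h minus that at 72 h was -1.78 on the log2 scale, with a 95% interval of -4.87 to 1.31 and a limma adjusted p of 0.991. For miR-26b (1org-26b) the difference was 1.60, with an interval of -1.49 to 4.68 and the same adjusted p. Neither difference passed the test. After centring on miRNA medians, miR-155 had the lowest p of the 171 probes, 0.00283 before adjustment and 0.483 after it. The pattern of signs did not hold after that centring. With Foxp3 in Cy3 at 72 h, miR-155 was deposited at -0.71, above that array's median of -0.83, so its turned sign there changed. At 96 h the centred turned values of miR-26b were -0.11 and 0.97. In the other reading, the means of miR-155 were 0.58 at 96 h and 0.25 at 72 h, and those of miR-26b 0.11 and -0.40.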

How the results depend on the processing

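Against 88 probes past 1.5-fold (79 higher, 9 lower), centring on miRNA medians gave 30 higher and 43 lower, scaling as well 21 and 38, and U6 and tRNA centring 4 lower. The other reading gave 58 in all and 0 lower, and with centring 29 in all and 18 higher. A 2-fold threshold gave 49 (46 higher, 3 lower). With 1 array left out the total ran from 97 to 133, higher from 41 to 131 and lower from 2 to 56. Against 96 probes of 1 sign after turning, the other reading with centring gave 53. Against 12 probes apart from 72 h, centring gave 41, U6 and tRNA 81, the other reading 116, and with centring 35. The limma count for 96 h against 72 h, 0, became 2 in the other reading (lowest adjusted p 0.0337), with adjusted p values of the lowest probe from 0.0337 to 0.991 over the settings; leaving out an array leaves no residual degree of freedom and no value. Of 33 families, 22 had a median above 0, and from 17 to 30 with 1 array left out. No paired analysis was possible. Both arrays of a time are taken to hold the same RNAs, and the labels give the times no shared replicate number.

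Of the 171 probe means and 33 family medians, 28 and 5 lay on the other side of 0 after centring on miRNA medians, 21 and 8 after U6 and tRNA centring, 50 and 11 in the other reading, and 78 and 10 in the other reading with centring. Among these, the named probes past 1.5-fold, and the families with most probes past it, are given here, and the cause was not tested. Centred on miRNA medians: miR-30b -0.0060 and miR-217 -0.0035. In the other reading: miR-122a -0.79, miR-142-as 0.69, miR-155 0.58, miR-15a 0.59, miR-20a 0.68, miR-302 -0.14, miR-34b -0.029, miR-34c 0.72, miR-142* 0.080, miR-19a 0.65, miR-221 0.40, miR-222 0.42, and the family medians of miR-142 (0.26) and of miR-221 with miR-222 (0.41). In the other reading with centring, those now above 0 were miR-142-as 0.050, miR-20a 0.041, miR-34c 0.079 and miR-19a 0.0080. Those now below 0 were miR-101 -0.33, miR-10b -0.10, miR-122a -1.44, miR-125a -0.17, miR-129 -0.011, miR-130a -0.27, miR-133 -0.083, miR-137 -0.12, miR-143 -0.22, miR-153 -0.53, miR-182 -0.47, miR-194 -0.011, miR-1d -0.21, miR-203 -0.30, miR-26b -0.54, miR-295 -0.54, miR-300 -0.28, miR-301 -0.092, miR-302 -0.79, miR-30b -0.34, miR-31 -0.23, miR-34b -0.67, miR-98 -0.39, miR-181c -0.56, miR-214 -0.082, miR-217 -0.14, miR-218 -0.34, miR-223 -0.17, miR-32 -0.16, and the family medians of miR-1 with miR-206 (-0.21), miR-130 with miR-301 (-0.18), miR-137, miR-138 and miR-153 (-0.32) and the miR-290 cluster (-0.059). Direction, log base and centring of the deposited values remain unknown, and signal over background is not given in the files used here.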
